A study of Homo sapiens with 4 samples.

Results

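Histone methyltransferases and demethylases write and erase the methyl marks on lysines of histones H3 and H4. 44 genes for these enzymes, named by their symbols in GENCODE 44, were followed in the binding profile of FLI1, out of 20046 protein-coding genes and 62700 annotated genes in all. The 44 comprised 25 methyltransferases, which act on H3K4, H3K9, H3K27, H3K36, H3K79 or H4K20, and 19 demethylases, of which 2 were flavin-dependent enzymes of the LSD type and 17 carried a JmjC domain. They were taken from a list of symbols, and the rule used no measured value, although the list was drawn up with earlier results of these data known. A gene was counted as having a promoter peak when a called peak overlapped the 3 kb on either side of the start of any of its transcripts, and as having a gene-body peak when a peak overlapped the gene and lay outside all of these windows.

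The data were peak lists from ChIP-seq with an anti-Flag antibody in HK1, an established cell line of nasopharyngeal carcinoma made to overexpress Flag-tagged FLI1. The control cells received PBS, and the other cells received IFN-γ for 24 h before crosslinking. Both libraries carried the overexpressed, tagged protein, so the peaks describe that protein and not endogenous FLI1, and the 2 input libraries were not analysed here. Each condition had 1 library, so no test of the treatment was possible, and what IFN-γ changed and what differed between the libraries for other reasons cannot be told apart.

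FLI1 is a transcription factor of the ETS family, whose members recognise a GGAA core and often bind close to transcription start sites. H3K4 methylation marks active promoters and enhancers, H3K9 and H3K27 methylation accompany silent chromatin, H3K36 and H3K79 methylation accompany transcribed gene bodies, and H4K20 methylation is tied to chromatin compaction and the cell cycle. The demethylases studied here remove methyl groups mainly from H3K4, H3K9, H3K27 and H3K36.

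The control list held 30819 peaks and the IFN-γ list 39654. The fold enrichment of a peak is its summit height over the local background, each with 1 added. The pileup is the number of DNA fragments that cover the summit, and was solved from the fold enrichment and the p-value of each peak. The median pileup over the whole lists was 16 in the control and 22 after IFN-γ. Total reads are not given in the lists, and the lowest background of each list put the IFN-γ library at 1.46 times the depth of the control.

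The sequences under the summits that the results turn on are printed from GRCh38 on the strand of the gene, 5′ to 3′, with every GGAA core and its complement TTCC in capitals. Each run covers at most 100 bases on either side of the summit and was shortened where an untranslated region began. KDM5A, KMT2D and KMT2A are shown as 3 of the strongest promoter peaks of the set. KMT5A and KDM6B stood high in the IFN-γ library relative to other genes, KMT5B stood low, and KDM7A held a GGAA repeat. The runs lie at chr12:389291-389377 (minus strand), chr12:49060765-49060886 (minus), chr11:118436248-118436448 (plus), chr12:123383681-123383881 (plus), chr17:7842983-7843183 (plus), chr11:68213799-68213907 (minus) and chr7:140178108-140178308 (minus), in the order given.
KDM5A: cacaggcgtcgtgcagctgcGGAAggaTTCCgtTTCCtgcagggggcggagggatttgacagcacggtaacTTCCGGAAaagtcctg
KMT2D: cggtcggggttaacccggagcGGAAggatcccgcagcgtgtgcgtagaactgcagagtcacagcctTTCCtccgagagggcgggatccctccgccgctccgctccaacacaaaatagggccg
KMT2A: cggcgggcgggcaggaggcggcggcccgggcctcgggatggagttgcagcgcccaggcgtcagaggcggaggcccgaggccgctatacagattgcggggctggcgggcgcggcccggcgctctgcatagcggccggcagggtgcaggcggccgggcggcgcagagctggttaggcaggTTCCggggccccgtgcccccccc
KMT5A: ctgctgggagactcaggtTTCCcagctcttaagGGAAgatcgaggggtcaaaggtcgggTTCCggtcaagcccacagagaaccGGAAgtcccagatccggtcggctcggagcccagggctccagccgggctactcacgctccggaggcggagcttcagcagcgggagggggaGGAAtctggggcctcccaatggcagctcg
KDM6B: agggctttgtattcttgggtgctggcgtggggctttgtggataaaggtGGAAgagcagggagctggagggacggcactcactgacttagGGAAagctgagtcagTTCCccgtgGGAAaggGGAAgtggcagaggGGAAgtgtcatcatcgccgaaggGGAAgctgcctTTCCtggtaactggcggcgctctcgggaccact
KMT5B: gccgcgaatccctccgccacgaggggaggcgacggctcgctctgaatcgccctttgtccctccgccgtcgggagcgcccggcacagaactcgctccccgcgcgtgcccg
KDM7A: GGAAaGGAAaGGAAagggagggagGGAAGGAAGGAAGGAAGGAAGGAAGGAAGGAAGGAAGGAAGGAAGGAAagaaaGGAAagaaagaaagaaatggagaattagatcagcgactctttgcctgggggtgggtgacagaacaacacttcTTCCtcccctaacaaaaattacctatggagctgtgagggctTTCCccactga

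Nearly all of the genes had a FLI1 peak at a promoter. In the control library 43 of the 44 did (97.7%), where 61.9% of all protein-coding genes did, and in the IFN-γ library 41 did (93.2%), against 59.7%. Promoter peaks in both libraries were found at 41 of the 44, against 56% of all protein-coding genes. KDM8 (JMJD5), the last of the JmjC genes, had no promoter peak in either library. KMT2C and EZH1 had a promoter peak in the control library only, and no gene of the set had a promoter peak in the IFN-γ library only. The enzymes have many annotated start sites, with a median of 13.5 per gene against 5 over all protein-coding genes, so their windows cover more of the genome. Using the 3 kb around 1 start site per gene, 43 genes had a peak in the control library against 57.3% of all protein-coding genes, and 39 in the IFN-γ library against 54.1%.

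The lists of related genes, given for comparison by their counts alone, also lay above the share of all protein-coding genes. Of 20 partners in the same complexes, such as WDR5 and ASH2L of the H3K4 methyltransferase complexes and EED and SUZ12 of Polycomb repressive complex 2, 19 had a promoter peak in the control library and 18 after IFN-γ. The 20 other enzymes of histone methylation, mostly arginine methyltransferases and the SMYD and PRDM families, had 17 and 15. Of 11 histone acetyltransferases 11 and 10 had a promoter peak, and of 18 deacetylases 16 and 17.

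**Figure D1:**
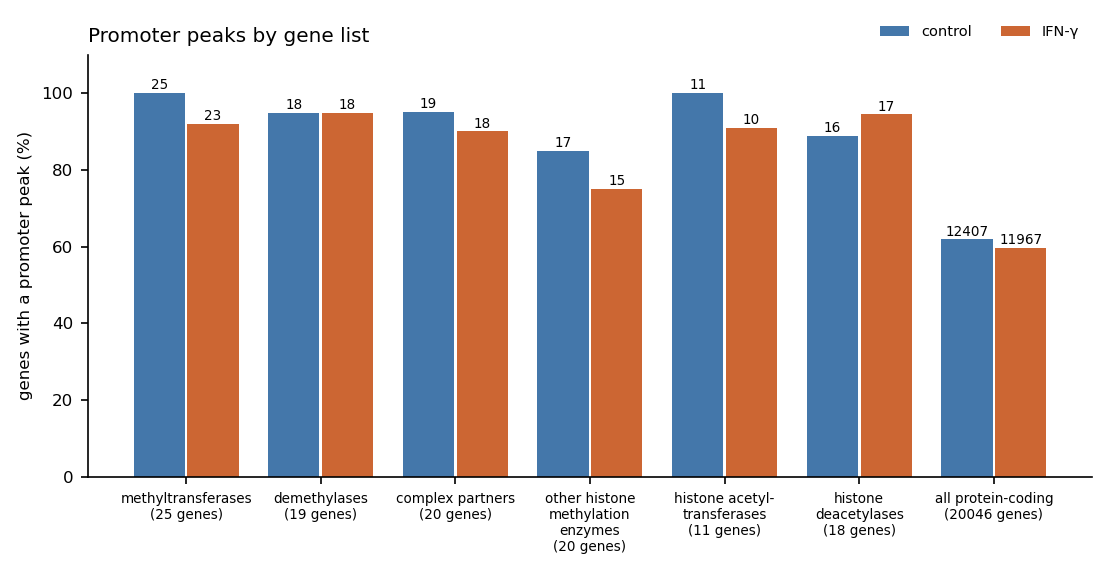
Percentage of genes with a promoter peak (vertical axis) for the 25 methyltransferases, the 19 demethylases, 4 lists of related genes and all 20046 protein-coding genes, in the control (blue) and IFN-γ (orange) library. Numbers above the bars count the genes with a peak, and the bars of all the lists stand above those of all protein-coding genes, at 61.9% and 59.7%.

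The promoter peaks of the set were close to typical in strength. Over the strongest promoter peak of each gene, the median fold enrichment was 12.5 in the control and 9.51 after IFN-γ, against 10.5 and 9.12 over all protein-coding genes with a promoter peak. The range ran from 4.38 to 93.1 in the control and from 3.58 to 176 after IFN-γ. Ranked by p-value, the strongest peaks had a median position 21.1% down the control list and 23.6% down the IFN-γ list, against 24.7% and 28.8% over all protein-coding genes. In the control 14 of 43 genes (32.6%) were among the top 10% of all peaks, compared with 24.8% of all protein-coding genes with a peak, and 13 of 41 (31.7%) after IFN-γ, compared with 23%. The control summits lay within 500 bp of an annotated start site of the gene itself for 34 of 43 genes, and the IFN-γ summits for 28 of 41. The same share over all protein-coding genes was not counted.

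**Figure D2:**
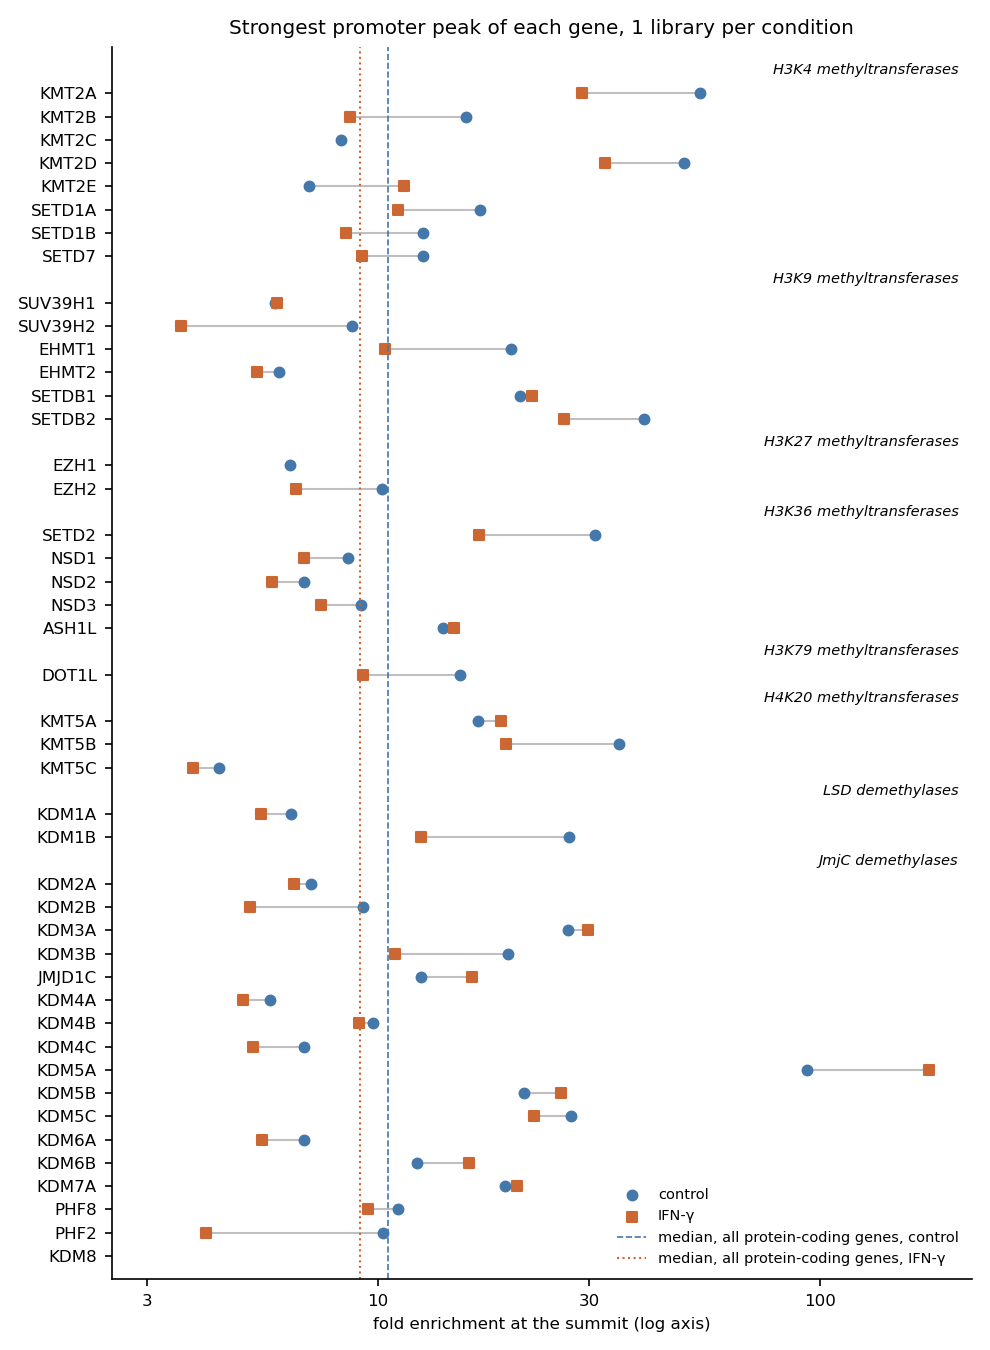
Fold enrichment at the summit of the strongest promoter peak of each gene (log axis) in the control (blue circles) and IFN-γ (orange squares) library, 1 library per condition, with genes grouped by the residue or enzyme family. Dashed and dotted lines mark the medians of all protein-coding genes, 10.5 in the control and 9.12 after IFN-γ, and KDM5A stands farthest to the right in both libraries.

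KDM5A, a JmjC enzyme that removes H3K4 methylation, had the strongest promoter peak of the set in both libraries. Its summit was covered by 373 fragments in the control, a fold enrichment of 93.1, and by 651 fragments after IFN-γ, a fold of 176. The peak ranked 6 of 30819 in the control and 3 of 39654 after IFN-γ. The summit lay 9 bp upstream of the KDM5A start site in the control and 10 bp upstream after IFN-γ. The promoter is shared with the divergent gene CCDC77, whose nearest upstream start site lay 28 bp from the KDM5A start. The 100 bp on either side of the summit held 9 GGAA cores, 5 of them in the run printed above. By the mean of the rank percentages in both libraries, SETDB2, an H3K9 methyltransferase, came next with 119 fragments and a fold of 39.9 in the control and 131 fragments and a fold of 26.3 after IFN-γ, and its summit was nearer to the start of the divergent gene CAB39L, at 62 bp, than to its own, at 283 bp.

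The H3K4 methyltransferases KMT2D and KMT2A followed by mean rank, although in the control alone both ranked above SETDB2. KMT2D, which methylates enhancers, had 110 fragments in each library, with a fold of 49.2 in the control and 32.7 after IFN-γ. KMT2A, also known as MLL1, had 124 fragments and a fold of 53.4 in the control and 104 fragments and a fold of 28.9 after IFN-γ. The KMT2D summit lay 8 bp downstream of its start in the control and 3 bp upstream after IFN-γ, and that of KMT2A lay 108 and 268 bp upstream. KDM5C, an X-linked H3K4 demethylase, was the fifth by mean rank, with 81 fragments and a fold of 27.2 in the control and 109 fragments and a fold of 22.5 after IFN-γ. In the control alone KMT5B, with a rank of 811, stood above KDM5C, with a rank of 868.

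The remaining H3K4 methyltransferases had peaks of middling height. KMT2B and SETD1A, which methylate H3K4 at promoters, had folds of 15.8 and 17.0 in the control and 8.63 and 11.1 after IFN-γ. The KMT2B summits lay apart, 191 bp upstream of a start in the control and 1080 bp upstream after IFN-γ. A smaller control peak of 12 fragments, 1135 bp upstream, overlapped the same IFN-γ peak of 29 fragments, a ratio of 1.66 (0.821 to 3.57). The strongest peak of SETD1B lay 3557 bp upstream of its start in the control and nearer to the start of RHOF, and had a fold of 12.7, then 8.45. SETD7, which adds a single methyl group, had a fold of 12.7 and 25 fragments at its main start in the control. KMT2E belongs here by its name, although its SET domain is not known to be active. The strongest peak in its promoter windows had 41 fragments in the control and 59 after IFN-γ, and lay nearer to the non-coding gene LINC01004 than to KMT2E. KMT2C, the close relative of KMT2D, had 2 small promoter peaks in the control, with 16 and 7 fragments, and none after IFN-γ.

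Among the H3K9 methyltransferases, the range was wide. SETDB1, which silences retroelements, had 55 fragments and a fold of 20.9 in the control and 116 fragments and a fold of 22.3 after IFN-γ, with its summit within 10 bp of an annotated start in both. EHMT1 (GLP) had 48 and 37 fragments, and EHMT2 (G9a), its partner in the same complex, had 19 in each library. SUV39H1 and SUV39H2, which add the H3K9 trimethylation of pericentric heterochromatin, were among the 5 genes with the lowest mean rank. SUV39H1 had 11 fragments in the control and 14 after IFN-γ, and SUV39H2 had 17 and 14.

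Of the H3K27 methyltransferases, which are the alternative catalytic subunits of Polycomb repressive complex 2, EZH2 had a promoter peak of 27 fragments in the control and 31 after IFN-γ, with folds of 10.2 and 6.54. EZH1 had a peak of 12 fragments in the control, with a fold of 6.33, and none in the IFN-γ list. SETD2, the main enzyme of H3K36 trimethylation, had 70 fragments in each library, with folds of 31.0 and 17.0, which placed it above the other H3K36 methyltransferases. ASH1L had 34 and 46 fragments, NSD1, an H3K36 dimethyltransferase, had 19 at its strongest control peak, its relative NSD3 had 18 and 26, and NSD2 had 13 at its strongest control peak. DOT1L, the H3K79 methyltransferase, had 32 and 41 fragments.

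The H4K20 methyltransferases differed from each other. KMT5A (SET8), the monomethyltransferase, had 44 fragments in the control and 92 after IFN-γ, and KMT5B, which adds the further methyl groups, had 71 and 53. KMT5C, which shares the activity of KMT5B, had the lowest mean rank of the set, with 8 fragments in the control and 15 after IFN-γ, and the peaks of the 2 libraries did not overlap.

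The LSD demethylases also differed, with KDM1A (LSD1) at 16 fragments in the control and 20 after IFN-γ and KDM1B (LSD2) at 74 and 57. Among the JmjC demethylases, KDM3A, which acts on H3K9, stood just behind KDM5C in the order of mean rank, with 74 and 98 fragments and folds of 26.9 and 29.8. KDM3B, its paralogue, had 47 and 36 fragments, and JMJD1C, another gene of the KDM3 family, had 30 at its own start in the control. The H3K4 demethylase KDM5B had 43 and 71 fragments at a peak 2285 bp upstream of its start in the control, and 24 and 26 at the start itself. KDM4A and KDM4C, demethylases of H3K9 and H3K36, were among the 5 genes with the lowest mean rank, with 20 fragments in the control and 18 after IFN-γ at the strongest peak of each list for KDM4A and 13 and 19 for KDM4C. The H3K27 demethylase KDM6A had 13 and 18 fragments, PHF8, which acts on H3K9 and H4K20, had 22 and 35, and PHF2 had 21 and 19 at its strongest peak in each list.

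In 5 genes the strongest control peak lay over 3 kb from the start of the MANE Select transcript, the reference transcript of the gene. In KDM2A, an H3K36 demethylase that binds unmethylated CpG, it was in intron 12, 38 bp from an internal start and 121 kb from the reference one, with 25 fragments in the control and 26 at the same place after IFN-γ. KDM2B, its paralogue, and KDM4B had theirs in introns 12 and 6, 113 and 80.3 kb from the reference start, and SETD1B was the fourth of these genes. In KDM6B, an inducible H3K27 demethylase, it lay in intron 2, 8.87 kb downstream of the reference start, with 44 fragments in the control and 106 after IFN-γ. Such distant peaks were not counted over all protein-coding genes, so they cannot be called a trait of the set.

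Of the 43 genes with a control promoter peak, 40 had their strongest one overlap a peak after IFN-γ. This share was 87.5% over all protein-coding genes with a control promoter peak. Once scaled for depth by the lowest backgrounds, 32 of the 40 genes had a lower pileup after IFN-γ and 8 a higher one. Over all protein-coding genes with such a pair, 7567 had a lower and 3285 a higher one. The split of the 40 depended on the scaling, with 4 genes above 1 when scaled by median backgrounds and 20 when scaled by the median ratio of all genes. The ratio of IFN-γ to control had a median of 0.819, from 0.458 to 1.65, against a median of 0.832 over 10852 protein-coding genes with such a pair, so the set lay close to the other promoters. KMT2C, EZH1, KMT5C and KDM8 gave no pair. Each ratio has an exact (Clopper-Pearson) 95% interval, which covers counting error only and not the variation between libraries.

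In 4 genes the interval lay wholly above the median of all genes, where 11.3% of all pairs did. They were KDM6B with a ratio of 1.65 (1.15 to 2.41), SETDB1 with 1.45 (1.04 to 2.03), KMT5A with 1.44 (0.992 to 2.11) and KDM5A with 1.20 (1.05 to 1.37). In 5 genes it lay wholly below, where 5.44% of all pairs did. They were KMT2A with 0.576 (0.44 to 0.754), EHMT1 with 0.529 (0.335 to 0.83), KDM1B with 0.529 (0.368 to 0.758), KDM3B with 0.526 (0.331 to 0.83) and KMT5B with 0.513 (0.352 to 0.742). The 4 genes above make 10% of the 40 pairs, close to the share of all pairs, and the 5 below make 12.5%, a count too small to set the enzymes apart. The other 31 genes had intervals that held the median. Methyltransferases and demethylases were found on both sides: 2 and 2 above, 3 and 2 below.

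**Figure D3:**
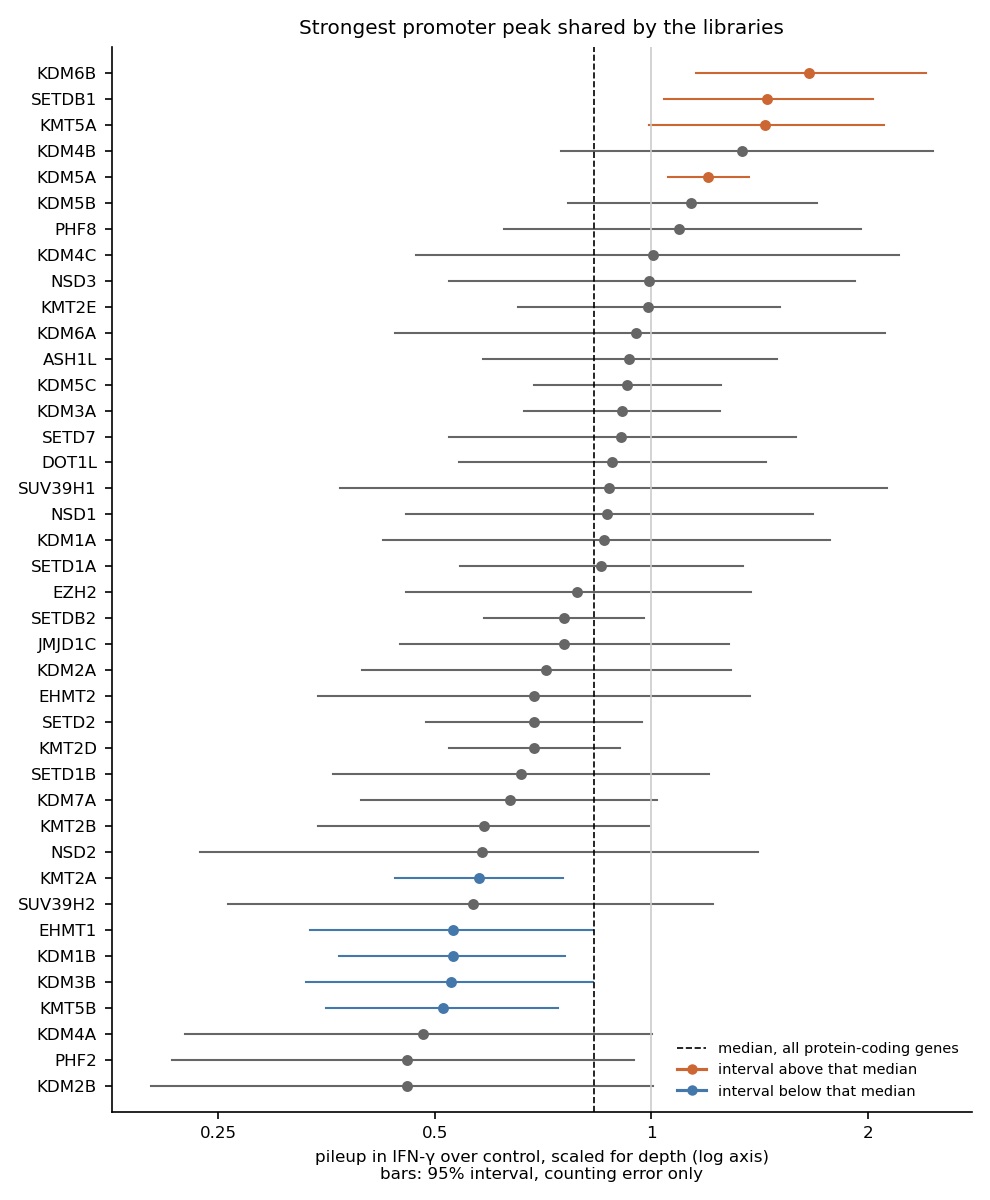
Pileup after IFN-γ over pileup in the control, scaled for depth (log axis), at the strongest control promoter peak of 40 genes, with points for the ratio and bars for its 95% interval of counting error. The dashed line marks the median of all protein-coding genes at 0.832, and orange and blue mark the 4 genes above and the 5 genes below it with their whole interval.

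The genes on the 2 sides differed in the sequence under the control summit. Within 100 bp of it, the 4 genes above the median held 5 to 9 GGAA cores and had a GC content of 54.7% to 65.2%, whereas the 5 genes below held 0 to 3 cores and had 66.7% to 79.1%. The other 31 genes held 0 to 5 cores and had 49.3% to 82.6%, which spans the GC content of both sides. The runs printed above show this, with 8 cores for KDM6B and 1 core for KMT2A. The counts depended on the summit used, since the summits of the 2 libraries can lie apart. Around the IFN-γ summit KMT2A held 4 cores in place of 1, and KDM3B 3 in place of 0. There the 4 genes above held 5 to 10 cores and the 5 genes below 1 to 4. Over the 40 genes the Spearman correlation of the ratio was 0.46 with the number of cores and -0.579 with GC content, and the 2 sequence features were themselves correlated at -0.484. All 40 points share the same pair of libraries, and this relation was looked for after the ratios were seen.

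The same order was seen across the promoters of all protein-coding genes, but more weakly for the cores. Over 9030 promoter peaks the correlation of the ratio was 0.258 with the number of cores and -0.558 with GC content. The 997 peaks with an interval above the median held a median of 4 cores (quartiles 3 and 6). The 511 peaks below held a median of 3 (quartiles 2 and 4). By class of GC content, the median ratio of all promoter peaks was 1.32 below 50% GC, 1.13 from 50% to 60%, 0.873 from 60% to 70%, 0.705 from 70% to 80% and 0.619 at 80% or more. In the enzyme genes the medians over the last 4 of these classes were 1.20, 0.951, 0.755 and 0.547, with 5, 11, 19 and 4 genes. KDM5C was alone below 50%, with a ratio of 0.924. Split by the number of cores, the median ratio of all promoter peaks was 0.736 with 0 or 1 core and 1.43 with 9 or more. Within the peaks of GC content at or above their median of 68.2%, it was 0.687 with 0 or 1 core and 0.768 with 6 to 8, and within the peaks below it was 0.962 and 1.03. With 9 or more cores it was 1.46 over 162 peaks below the median GC content, and only 5 such peaks lay at or above it. What part base composition plays through the libraries themselves was not tested.

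**Figure D4:**
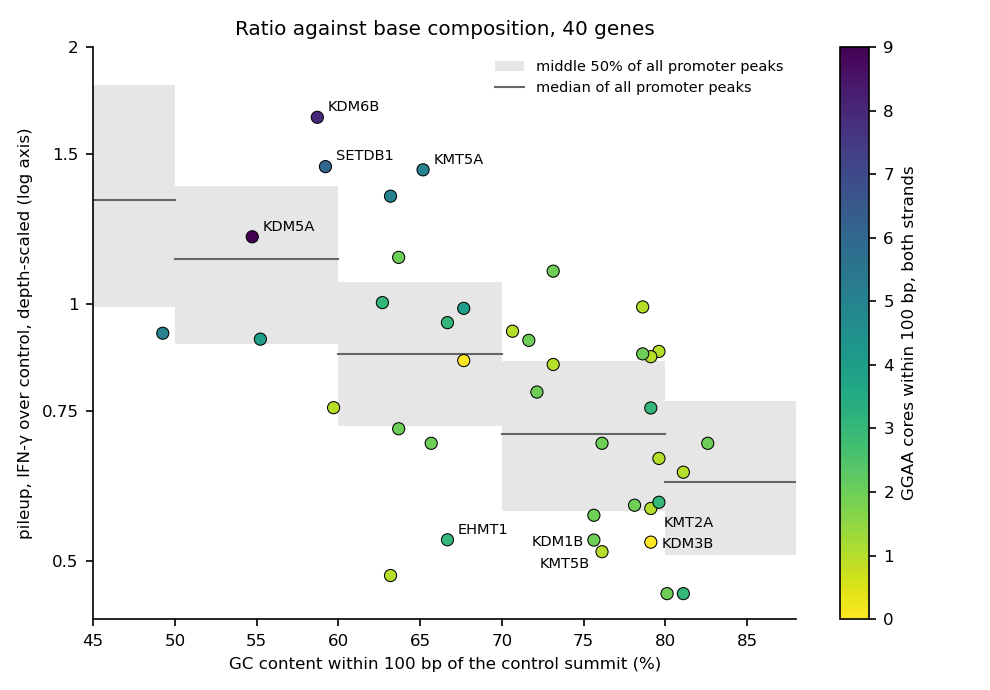
Depth-scaled ratio of IFN-γ to control pileup (log axis) against the GC content within 100 bp of the control summit, for 40 genes, coloured by the number of GGAA cores in that window. Grey boxes and lines give the middle 50% and the median of all promoter peaks in 5 classes of GC content, which step down from 1.32 to 0.619, and the 9 genes with an interval off the median are named.

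Several genes had promoter peaks with different ratios within the gene, although of those described here only KDM7A had intervals that lay apart. At KDM7A, a demethylase of H3K9 and H3K27, the peak at the start held 40 fragments in the control and 37 after IFN-γ, a ratio of 0.635 (0.395 to 1.02). The peak 1248 bp upstream held 34 fragments in the control and 78 after IFN-γ, a ratio of 1.58 (1.04 to 2.43), and these intervals did not overlap. The upstream peak sits on the repeat printed above, with 12 GGAA units in an unbroken row. GGAA repeats are known as binding sites of EWS-FLI1, the fusion protein of Ewing sarcoma that carries the DNA-binding domain of FLI1.

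SETD7 had a ratio of 0.907 (0.523 to 1.59) at its main start, and 2.16 (1.16 to 4.26) at a start 50.5 kb upstream, from 14 fragments in the control to 44 after IFN-γ. JMJD1C had 0.755 (0.447 to 1.28) at its main start and 1.79 (1.14 to 2.88) at a peak 55.0 kb upstream, where 28 fragments in the control and 73 after IFN-γ lay near the start of REEP3. In both genes the intervals of the pair of peaks overlapped. At KDM6B the peak in intron 1 held 30 fragments in the control and 45 after IFN-γ, a ratio of 1.03 (0.635 to 1.69). The stronger peak in intron 2 had 1.65 (1.15 to 2.41), and these intervals overlapped as well.

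A full ETS consensus was uncommon at the summits of the set. The octamer CMGGAAGT, in which M is A or C, was searched on both strands within 100 bp of the strongest summit. It was found in 2 of 43 genes in the control, where 15.8% of all promoter peaks held it, and in 2 of 41 after IFN-γ, against 18.5%. Both times the genes were KDM5A and KMT5A. In both it read CCGGAAGT. At KDM5A it lay on the opposite strand, with the end nearer to the control summit 21 bp downstream of it. At KMT5A it began 19 bp upstream of the control summit on the gene's own strand. Smaller promoter peaks of KMT2E and ASH1L held it as well. The 4-letter core GGAA, which is part of the octamer, was present at 39 of 43 control summits and 39 of 41 IFN-γ summits, against 94.5% and 97.3% of all promoter peaks. Windows of the same width 1 kb to either side held the core about as often, in 80 of 86 in the control and 75 of 82 after IFN-γ. For all promoter peaks, 83.7% and 83.0% of such windows held it. The octamer was in 3 of the 86 and 1 of the 82 windows, against 1.42% and 1.41% for all promoter peaks. The presence of a core thus did not set the summits of the set apart from their surroundings.

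Many of the promoters faced another gene. A start site of a gene on the opposite strand lay within 1 kb upstream of the reference start in 17 of the 44 genes (38.6%), against 24.5% of all protein-coding genes. This was so in 13 of 25 methyltransferases and 4 of 19 demethylases. In 7 genes in the control and 11 after IFN-γ, the start site nearest to the strongest summit belonged to another gene, so these peaks cannot be assigned to the enzyme gene alone. How often this was so over all protein-coding genes was not counted, so it cannot be called a trait of the enzyme genes.

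Gene-body peaks were found in 10 of the 44 genes in the control, where 19.1% of all protein-coding genes had one, and in 15 after IFN-γ, against 25.3%. The genes held 19 such peaks in the control and 24 after IFN-γ, of which 11 in each list overlapped a peak of the other. Per 100 kb of gene this came to 0.406 and 0.513 peaks, below the 0.529 and 0.80 of all protein-coding genes, and the enzyme genes were longer, with a median of 80.5 kb against 27.4 kb. Methyltransferases accounted for most of the added genes, with 6 of 25 in the control and 11 after IFN-γ, whereas 4 of 19 demethylases had gene-body peaks in each library. Of the methyltransferases with gene-body peaks after IFN-γ only, KMT2A, SETD2 and ASH1L had 12, 13 and 14 fragments there, and NSD1 and EHMT1 had 24 and 35. The deeper IFN-γ list also held more peaks in all. With lists of equal length, 12 of the 44 genes had a gene-body peak after IFN-γ, against 21.7% of all protein-coding genes.

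JMJD1C, KDM4B and KMT2E held the most gene-body peaks. JMJD1C had 3 in the control and 5 after IFN-γ, 2 of them in both lists. KDM4B had 4 and 3, of which 2 were in both, and the highest lay in intron 18, 170 kb from the reference start, with 27 fragments in the control and 55 after IFN-γ, a ratio of 1.40 (0.868 to 2.31). KMT2E had 4 and 3, and its highest, with 82 and 112 fragments, lay 3 bp from a start of LINC01004 in the control. DOT1L had 2 and 1, all in intron 1, and SETD7 had 1 and 2.

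The highest of the peaks counted as gene-body peaks overlapped the far end of KMT2D, but its summits lay just beyond the gene, 18 bp from the start of PRKAG1 in the control, with 100 fragments there and 153 after IFN-γ. PHF2, a relative of KDM7A, had a peak in intron 1, 24.2 kb from its start, with 31 fragments in the control and 24 after IFN-γ, a ratio of 0.532 (0.299 to 0.936).

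GGAA repeats, counted as 4 or more units in a row, lay under gene-body peaks of KMT2C, EZH2 and KMT2E. In intron 6 of KMT2C, 129 kb from the start, 28 cores surrounded the control summit, which held 27 fragments and then 61 after IFN-γ, a ratio of 1.55 (0.971 to 2.54). KMT2C thus had this peak in both libraries and its promoter peaks in the control alone. In intron 3 of EZH2, 45.2 kb from the start, the pileup was 18 in the control and 49 after IFN-γ, a ratio of 1.87 (1.07 to 3.41), while its promoter peak had 0.789 (0.455 to 1.37). The repeats in intron 3 of KMT2E and in intron 7 of KDM5B had peaks in the IFN-γ list only, with 21 and 14 fragments, and the KDM5B peak fell within the window of an internal start.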

How the data were processed

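The 2 Flag ChIP libraries of HK1 cells overexpressing Flag-FLI1 were analysed, 1 per condition, so no comparison of conditions has a p-value. Per the methods and the submitters' processing notes, the authors used cutadapt 1.18 for trimming, Bowtie2 2.3.4.1 for alignment to GRCh38, Picard for duplicate removal, MACS2 2.1.2 for peak calling, with 0.01 as the p-value cutoff, and ChIPseeker for annotation. Whether the inputs entered the calling is not given in the sources used here. The deposited lists give for each peak the fold enrichment (a ratio) at the summit, its p-value and q-value as −log10, and a display score, which was not used. Control peaks went down to a −log10 p of 3.52 and a −log10 q of 1.30, and IFN-γ peaks to 3.46 and 1.32. The lists thus hold no peak near the stated p-value cutoff of 0.01.

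The pileup and background that give each deposited pair of fold enrichment and −log10 p were solved under the Poisson model of MACS. Pileups were taken as whole numbers, and gave back the −log10 p with a relative error of at most 6.21e-06. Ratios were scaled by the ratio of the lowest backgrounds. Start sites came from GENCODE 44, sequences from GRCh38, with Python 3.11.15, scipy 1.17.1 and pysam 0.24.0. Peaks were paired at an overlap of at least 1 bp. A gene with several promoter peaks was described by that with the lowest p-value. Motifs were searched 100 bp either side of summits. The code was tested on simulated data.

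All 44 genes were accounted for. Described in full were the 5 with the highest and the 5 with the lowest mean rank, those without a promoter peak in a library, those with a ratio interval off the median, and the 5 with the most gene-body peaks. The genes and lists were chosen with earlier results of these data known. The relation to GC content and GGAA cores, and the peaks described within genes, were chosen after the values were seen. The closing section gives the alternative windows, thresholds and scalings.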

Additional observations from a re-analysis of the deposited data

How the results depend on the processing

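No paired analysis was possible because only 1 library stood for a condition. The count of genes with a promoter peak was 41 to 44 in the control and 38 to 42 after IFN-γ over 8 alternatives of window, start site, threshold, list length and assignment. The share of all protein-coding genes ran from 56.9% to 68.6% in the control and from 53.1% to 68.7% after IFN-γ. KDM8 gained a control peak with windows of 10 kb, and KMT2C an IFN-γ peak with these windows or when peaks went to the gene of the nearest start, which left SETDB2 (control) and SUV39H2 (both) without one. KDM4B lost its IFN-γ peak with windows of 1 kb or with 1 start site per gene, KDM2B with 1 start site or lists of equal length, and SUV39H2 and KMT5C at a q-value under 1e-05 or with lists of equal length. The strongest peaks were shared in 28 genes when summits had to lie within 100 bp, in place of 40. Over all protein-coding genes with a control promoter peak the share was then 67.6%, in place of 87.5%. The median ratio was 0.874 with the strongest peak of each list, 0.645 when scaled by median backgrounds, 0.984 when scaled by the median ratio of all genes and 0.677 for fold enrichments, against 0.859, 0.655, 1 and 0.788 over all genes. The genes of the set with a ratio above 1 numbered 12, 4, 20 and 9 under these, in place of 8. Genes with a gene-body peak numbered 8 to 12 in the control and 12 to 18 after IFN-γ. Over all protein-coding genes the share was 15.7% to 23.1% and 21.7% to 29.8%. The alternatives there were a q-value under 1e-05, lists of equal length and promoter windows of 1 kb left out. A reversal was checked only for the median ratio of the set, which stayed below 1 under each alternative. It was below the median over all genes except with the strongest peak of each list. The median rank among promoter peaks alone was 31.7% in the control. Taking any promoter peak in place of the strongest raised the genes with the octamer to 4 in each library. The share of all protein-coding genes with a promoter peak was then 19.8% in the control and 23.1% after IFN-γ. Searching the 4-letter core raised them to 39 in each, since the core is less strict, against 94.5% and 97.3% of all promoter peaks. With pileups of 8 to 20 fragments, as at KMT5C, SUV39H1 and EHMT2, intervals of the ratio are wide, and a missing peak, as at EZH1 after IFN-γ, does not show that binding was absent.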
